A study of Homo sapiens with 12 samples.

Results

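Cells that carried the C-body null construct after degradation of their own mutant nucleophosmin were compared with solvent-treated cells. The members are 6 of the 12 libraries of the series, taken by their titles: 3 libraries titled dTAG C-body null and 3 titled NTC DMSO. All come from OCI-AML3, a human acute myeloid leukaemia line, with the genotype NPM1c-degron, in which the cytoplasmic mutant of nucleophosmin (NPM1c) is fused to a tag through which dTAG-13 has it degraded. The design text lists the wild-type allele beside the degron, so cells of all groups still hold wild-type NPM1. The C-body null group has the further genotype Cbodynull-mCherry, was transduced with lentivirus, received 500 nM dTAG-13 48 hours later and was sorted for mCherry 24 hours after that. NTC DMSO has no construct in its genotype label and is titled DMSO, although its treatment label reads dTAG, and the labels do not spell out NTC. The protocol text describes transduction and sorting without separating the groups, so whether NTC DMSO cells were transduced and sorted in the same way is not known here. The degrader and the construct, and possibly the virus and the sort, differ together between both groups and cannot be told apart in this comparison. The other 2 groups, dTAG mCherry and dTAG FL-NPM1c (full-length NPM1c linked to mCherry), received the same dose at the same times, with 3 libraries each, and serve below to show where C-body null cells differ. The labels do not say what the C-body null construct changes, and their cell line entries carry running numbers although the protocol names 1 line. Nor do they say that replicates are separate cultures. The p-values thus rest on the variation among these libraries, and that variation may be technical.

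Nucleophosmin is an abundant nucleolar chaperone. Its leukaemic mutant gains a nuclear export signal and is found largely in the cytoplasm, and NPM1-mutant leukaemias are known for high HOX and MEIS1 expression that depends on the menin-MLL complex. HOX proteins are homeodomain transcription factors that, with MEIS and PBX cofactors, hold myeloid progenitors in an immature state. Monocytes and macrophages are marked by calcium-binding S100 proteins, lysozyme, complement, pattern recognition receptors and leukocyte integrins.

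C-body null and NTC DMSO cells differed at 6389 of 24064 genes tested (26.6%). Of these, 3397 were higher in C-body null cells (14.1% of the genes tested) and 2992 were lower (12.4%). A gene is called where its Benjamini-Hochberg adjusted p from edgeR's quasi-likelihood test is under 0.05, and "rose" and "fell" are used only of such genes. Changes of at least 2-fold were mostly upward, with 1295 genes higher (5.38%) and 360 lower (1.50%). The median log2 fold change over all genes was -0.0007, a value that the scaling between libraries holds near 0. Residuals of same-numbered libraries of the 2 groups correlated at 0.24 to 0.36, which does not establish that they were paired. With the number as a block in a fit of these 6 libraries alone, 4587 genes were higher and 4919 lower. Without NTC DMSO replicate 1, 2542 were higher and 1983 lower. The 6 libraries held 36.1 M to 42.2 M counts, mitochondrial transcripts took 6.83% to 7.63% of them, and the first principal component of all 12 libraries (48.6% of the variance) placed the 3 NTC DMSO libraries at -46.8 to -39.6 and the 3 C-body null libraries at 20.9 to 24.5.

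**Figure D1:**
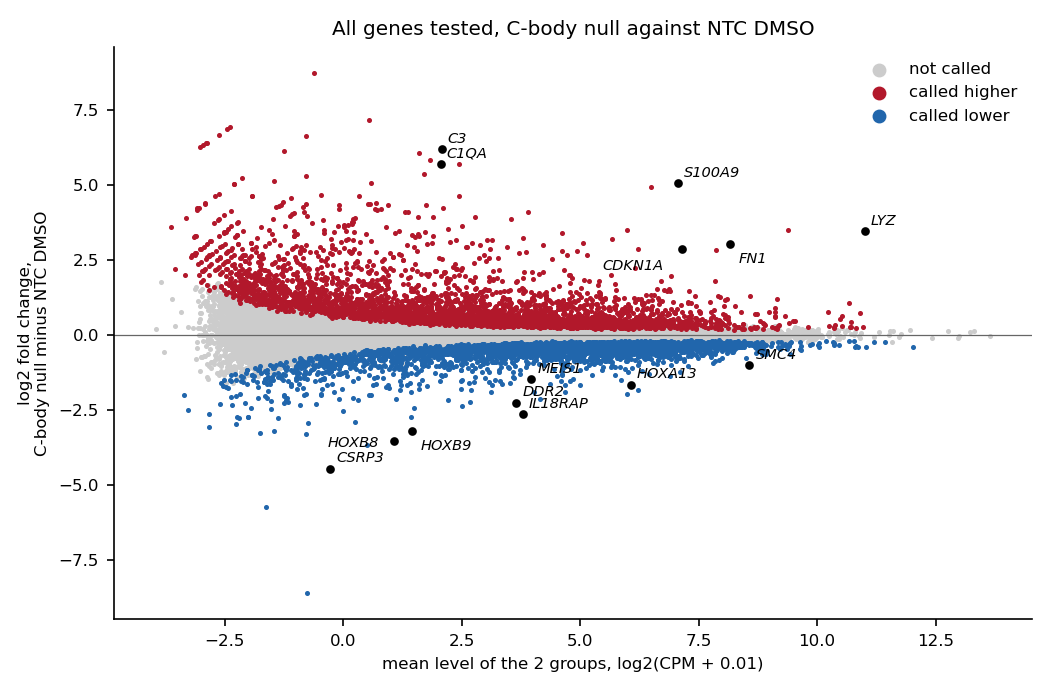
Each point is 1 of the 24064 genes tested, placed by the mean level of both groups on the log2 scale of CPM + 0.01 (x axis) and the log2 fold change, C-body null minus NTC DMSO (y axis). Red points are the 3397 genes called higher and blue points the 2992 called lower; black points are labelled genes, with S100A9, LYZ and C3 far above 0 and HOXB8, HOXB9 and CSRP3 far below it.

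NPM1 itself was measured first. Its level was 1515, 1477 and 1296 CPM (counts divided by the effective library total and scaled to 1e6) in NTC DMSO replicates 1 to 3 and 1931, 1937 and 1897 CPM in the C-body null libraries. All C-body null libraries were above all NTC DMSO libraries, and the log2 fold change was 0.43 ± 0.09 (SE, n = 3 per group, edgeR adjusted p = 0.0017). Counts per gene do not separate construct from endogenous transcripts, and a transcript level does not measure the degraded protein. The processed pseudogene NPM1P26, whose reads can be shared with NPM1, went from a mean of 0.201 to 10.7 CPM, so its level is uncertain.

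HOX genes and their cofactors were lower in C-body null cells. Of 26 genes listed, 21 were tested, and 15 fell while 1 rose, where 12.4% of all genes fell and 14.1% rose. The median log2 fold change was -1.22 against -0.0007 over all genes. HOXB9 (chromosome 17, 48621159 to 48626356, minus strand, GENCODE 29 on GRCh38), a posterior HOX factor, stood at 5.23, 4.88 and 4.70 CPM in NTC DMSO and at 0.577, 0.455 and 0.572 CPM in C-body null cells. The groups were far apart, and HOXB9 fell by 3.20 ± 0.17 on the log2 scale (edgeR adjusted p = 7.0e-10). Its neighbour HOXB8 (48611377 to 48614939) was at 3.70, 3.73 and 4.20 CPM and then at 0.302, 0.329 and 0.357 CPM. Every C-body null library was below every NTC DMSO library, as for 19.3% of all genes, and HOXB8 fell by 3.54 ± 0.19 (adjusted p = 8.8e-10). HOXA9 (chromosome 7, 27162435 to 27175180), the HOX gene most often linked to acute myeloid leukaemia, was at 65.6, 60.9 and 55.3 CPM and then at 29.8, 27.9 and 29.3 CPM. It fell by 1.06 ± 0.09 (adjusted p = 1.8e-07). MEIS1, the HOX cofactor, was at 24.1, 23.5 and 21.6 CPM and then at 8.41, 7.89 and 8.39 CPM. It fell by 1.49 ± 0.09 (adjusted p = 3.3e-09).

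Sequences upstream of the RefSeq starts of 2 genes that fell and 2 monocyte genes that rose are printed to show how these regions compare. The HOXA9 and MEIS1 windows lie inside the GENCODE 29 gene spans, downstream of the annotated 5′ ends. Those of S100A9 and ITGAM lie before the annotated genes, so the regions are not of the same kind. Each run covers bases 250 to 21 before the RefSeq start (GRCh38.p14), read 5′ to 3′ on the gene's strand, holds no GENCODE exon, and has each CG dinucleotide in capitals. HOXA9 is chr7:27165558-27165787 on the minus strand, MEIS1 chr2:66434875-66435104 on the plus strand, S100A9 chr1:153357604-153357833 on the plus strand and ITGAM chr16:31259725-31259954 on the plus strand.
HOXA9: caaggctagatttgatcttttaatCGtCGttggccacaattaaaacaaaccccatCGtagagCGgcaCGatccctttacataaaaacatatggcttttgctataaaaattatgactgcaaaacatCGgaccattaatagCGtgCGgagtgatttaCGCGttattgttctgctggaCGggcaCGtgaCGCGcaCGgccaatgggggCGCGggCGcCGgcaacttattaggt
MEIS1: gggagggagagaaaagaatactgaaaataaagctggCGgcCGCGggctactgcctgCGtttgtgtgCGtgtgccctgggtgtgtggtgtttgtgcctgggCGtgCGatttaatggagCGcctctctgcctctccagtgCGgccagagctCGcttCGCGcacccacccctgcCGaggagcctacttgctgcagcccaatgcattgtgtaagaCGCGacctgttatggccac
S100A9: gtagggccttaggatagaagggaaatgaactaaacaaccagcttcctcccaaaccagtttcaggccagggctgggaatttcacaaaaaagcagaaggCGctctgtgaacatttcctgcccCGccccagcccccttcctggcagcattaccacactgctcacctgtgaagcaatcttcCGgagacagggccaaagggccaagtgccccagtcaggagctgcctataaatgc
ITGAM: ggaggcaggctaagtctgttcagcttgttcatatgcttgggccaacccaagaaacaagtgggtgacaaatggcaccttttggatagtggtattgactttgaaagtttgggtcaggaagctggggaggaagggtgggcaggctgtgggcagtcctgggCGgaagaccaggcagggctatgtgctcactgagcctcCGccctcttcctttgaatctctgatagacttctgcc
The HOXA9 window holds 19 CG dinucleotides and the MEIS1 window 15, against 3 in S100A9 and 2 in ITGAM. Over 35116 RefSeq starts the median of such windows is 9, with quartiles of 3 and 21. The letters TATAAA, searched on both strands, start 29 bases before the S100A9 start and 150 bases before the HOXA9 start, and lie in neither of the other windows. They occur in 10.4% of all windows. GAGGAA, also searched on both strands, starts 127 bases before the ITGAM start and lies on the other strand 208 bases before the S100A9 start. It occurs in 21.7% of all windows and not in the HOXA9 or MEIS1 window. These are matches of letters and show no factor at work.

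Further HOX genes fell by different amounts. HOXA13 went from 102 ± 9.99 to 32.3 ± 1.61 CPM (mean ± SD, n = 3), a log2 fold change of -1.66 ± 0.09, and HOXA10 from 110 ± 3.88 to 47.9 ± 1.06 CPM, a change of -1.20 ± 0.07. PBX3, a further cofactor, fell less (-0.60 ± 0.09). HOXB5 was the 1 member that rose (0.61 ± 0.20, adjusted p = 0.035), and it lost its call when any library other than NTC DMSO replicate 3 was left out, with adjusted p up to 0.18 without NTC DMSO replicate 2. HOX clusters hold antisense transcripts, and the strand setting of the counting is not given in the sources used here, so values of overlapping transcripts are uncertain.

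For part of these genes the level was also lower than in the other groups that received dTAG-13. Set against NTC DMSO, HOXA9 changed by -0.50 ± 0.09 in dTAG mCherry and -0.43 ± 0.09 in dTAG FL-NPM1c, and MEIS1 by -0.81 ± 0.09 and -0.55 ± 0.09. These comparisons share the NTC DMSO libraries, and over all genes called 12.9% higher and 9.69% lower in dTAG mCherry and 14.6% and 13.3% in dTAG FL-NPM1c. Tested directly, 8 of the 21 members were lower in C-body null than in dTAG mCherry and 0 were higher, where 0.378% and 0.216% of all genes were. HOXB8 was lower by 1.60 ± 0.22 on the log2 scale (adjusted p = 0.0025), HOXA13 by 0.65 ± 0.09 (0.0025) and MEIS1 by 0.68 ± 0.09 (0.0019), and these 3 calls held in all 14 alternative fits. HOXA9 was lower by 0.56 ± 0.09 (0.0064), a call that ended without C-body null replicate 2 (adjusted p = 0.058). The calls of HOXB9 and HOXA10 against dTAG mCherry were less stable. Both ended when any C-body null library was left out and in the 2 groups alone (adjusted p = 0.16 and 0.13). That of HOXB9 also ended without dTAG mCherry replicate 1 (0.13), and that of HOXA10 with the replicate block (0.066). Against dTAG FL-NPM1c, 13 members were lower and 0 higher, where 4.82% and 4.86% of all genes were. HOXB9 was at 5.12 ± 0.44 CPM in dTAG FL-NPM1c and did not differ detectably from NTC DMSO there (0.05 ± 0.13), while C-body null cells were lower than dTAG FL-NPM1c by 3.25 ± 0.17 (adjusted p = 9.2e-09).

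**Figure D2:**
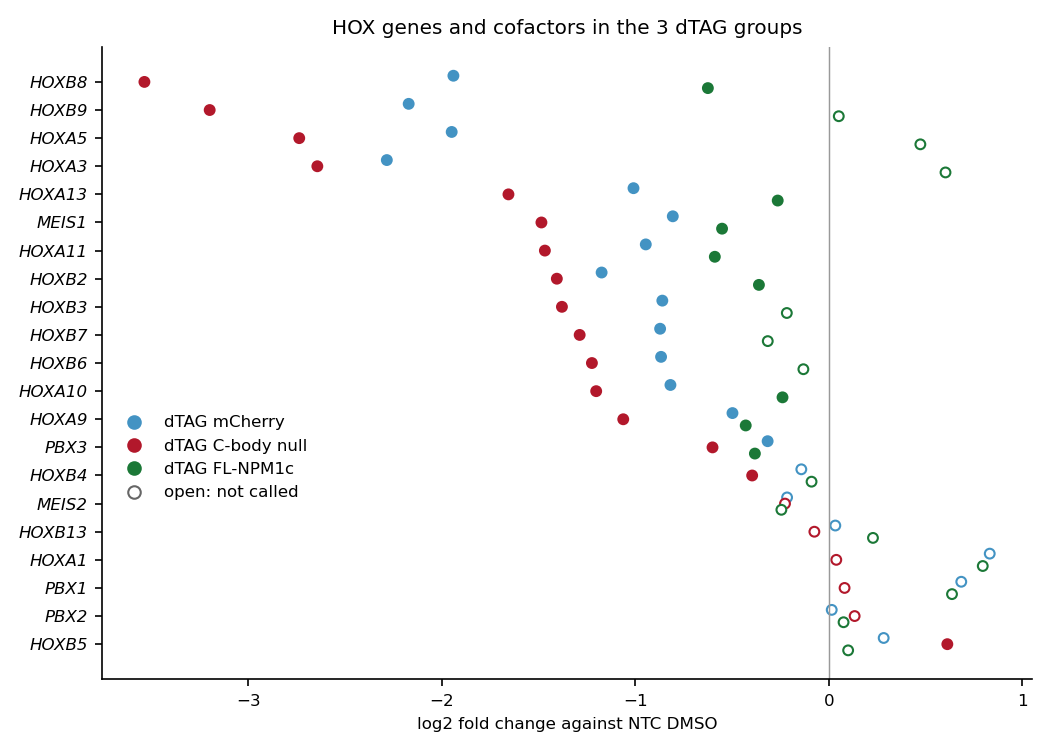
The log2 fold change against NTC DMSO (x axis) of the 21 HOX genes and cofactors tested (y axis) in dTAG mCherry (blue), dTAG C-body null (red) and dTAG FL-NPM1c (green), all against the same 3 NTC DMSO libraries. Filled points passed the test and open points did not; 15 red points lie below 0 and filled, and 8 green ones.

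Other genes known to depend on menin and MLL also fell. Of 18 tested members of a list outside HOX, which shares MEIS1 and PBX3 with the list above, 13 fell and 1 rose (median -0.66). SMC4, a condensin subunit, fell by 1.01 ± 0.10, the CDK4/6 inhibitor CDKN2C by 0.98 ± 0.09, and CDK6 by 0.65 ± 0.10. FLT3, a receptor tyrosine kinase of progenitors and blasts, was the exception. Its level was 22.4, 23.3 and 19.8 CPM in NTC DMSO and 41.9, 42.0 and 40.9 CPM in C-body null cells. All 3 were higher (0.93 ± 0.09, adjusted p = 7.6e-07), and FLT3 also stood at 33.1 ± 2.63 CPM in dTAG mCherry and 43.2 ± 2.72 CPM in dTAG FL-NPM1c. Among the subunits of the MLL, elongation and nuclear export machinery, 7 of 30 fell and 1 rose (median -0.10). Over the alternative fits 5 to 12 of them fell, and over all genes 12.4% fell and 14.1% rose. MEN1, which encodes menin, was at 42.4 ± 5.94 and 45.4 ± 2.78 CPM with overlapping libraries (0.10 ± 0.11), and KMT2A at 104 ± 6.57 and 98.5 ± 16.8 CPM (-0.07 ± 0.13). The elongation factor ELL2 was the member that rose (1.10 ± 0.12), and PSIP1, a chromatin tether of MLL, fell by 0.69 ± 0.10.

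Outside these lists the largest decreases under the naming rule were in genes of several kinds. CSRP3, a muscle LIM protein, went from 1.56 ± 0.26 to 0.0687 ± 0.018 CPM (-4.46 ± 0.40). BEND4, NPTX2 and ENTREP2 fell by 3.66 ± 0.31, 2.92 ± 0.35 and 3.32 ± 0.38. So did the vasopressin receptor AVPR1B (-2.89 ± 0.26), the potassium channel subunit KCNMB4 (-2.73 ± 0.16), the cadherin CDH6 (-2.54 ± 0.21) and ANXA2R (-2.23 ± 0.13). DDR2, a collagen receptor kinase, went from 20.7 ± 0.94 to 4.32 ± 0.90 CPM (-2.26 ± 0.12).

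These genes split by their level with full-length NPM1c. BEND4 stayed low there, at 2.62 ± 0.46 CPM in NTC DMSO, 0.207 ± 0.066 in C-body null and 0.218 ± 0.10 in dTAG FL-NPM1c. From NTC DMSO to dTAG FL-NPM1c the log2 fold change was -2.20 for CSRP3, -1.75 for DDR2, -1.74 for NPTX2 and -1.03 for ENTREP2. It was smaller for KCNMB4 (-0.45) and ANXA2R (-0.21). AVPR1B was at 2.09 ± 0.40 CPM in NTC DMSO, 0.280 ± 0.087 in C-body null and 1.83 ± 0.21 in dTAG FL-NPM1c, and C-body null cells were lower than the latter by 2.69 on the log2 scale (adjusted p = 3.4e-06). CDH6 was at 1.69 ± 0.13, 0.288 ± 0.019 and 2.98 ± 0.27 CPM in the same order (C-body null lower by 3.36, adjusted p = 1.9e-08). TP53INP2, an autophagy factor, was at 98.0, 106 and 101 CPM in NTC DMSO, 26.1, 24.3 and 27.8 in C-body null and 99.5, 92.2 and 90.8 in dTAG FL-NPM1c. C-body null libraries were thus the lowest, also below the 47.6, 49.1 and 48.5 CPM of dTAG mCherry (lower by 0.89, adjusted p = 2.4e-05).

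The accessory chain of the interleukin 18 receptor, IL18RAP, also stayed low with full-length NPM1c. It was at 24.5, 25.0 and 21.8 CPM in NTC DMSO, 3.46, 3.64 and 4.34 in C-body null, and 3.38, 4.17 and 3.66 in dTAG FL-NPM1c. C-body null and full-length libraries overlapped (difference 0.04 ± 0.13), and both lay below the 6.95 to 8.39 CPM of dTAG mCherry. Against dTAG mCherry, C-body null cells were lower by 0.99 ± 0.12 (adjusted p = 0.0012). IL18R1, the ligand-binding chain, fell by 2.14 ± 0.11 against NTC DMSO and was lower than dTAG mCherry by 0.86 ± 0.11 (0.0017).

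Monocyte and macrophage genes were among the largest increases. Surface receptors led by number: of 51 tested, 43 rose and 2 fell (median 1.43), where 14.1% of all genes rose and 12.4% fell. Secreted and granule proteins followed with 23 of 29 higher and 0 lower (median 1.01), and transcription factors with 10 of 26 higher and 2 lower (median 0.16). The receptors that fell were the fractalkine receptor CX3CR1 (-1.07 ± 0.15) and the Fc receptor FCGR2A (-0.59 ± 0.08). In bulk RNA, more cells of a type and more RNA per cell cannot be told apart.

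Among secreted proteins, S100A9, 1 chain of the alarmin calprotectin, was at 8.21, 7.55 and 7.66 CPM in NTC DMSO and 248, 245 and 286 CPM in C-body null cells. The lowest C-body null library was far above the highest NTC DMSO library, and S100A9 rose by 5.05 ± 0.18 (adjusted p = 9.1e-12). Its partner chain S100A8 rose by 4.95 ± 0.21 and the related S100A12 by 5.06 ± 0.38. LYZ, the antibacterial enzyme lysozyme, was at 368, 341 and 318 CPM and then at 3875, 3792 and 3653 CPM. It rose by 3.46 ± 0.08 (adjusted p = 4.2e-14), and C-body null cells were also above dTAG mCherry by 0.45 ± 0.07 (adjusted p = 0.0054), a call that ended without C-body null replicate 2 (0.058). C3, the central complement component, was at 0.124, 0.050 and 0.159 CPM and then at 7.75, 7.79 and 9.37 CPM. It rose by 6.20 ± 0.25 from a level near 0, and the complement chains C1QA and C1QC rose by 5.72 ± 0.40 and 6.08 ± 0.43. CYP4F3, a leukotriene-degrading enzyme, had 0 counts in all NTC DMSO libraries and 1.21, 1.14 and 1.50 CPM in C-body null cells, at least 51.5-fold higher than the 3 counts over the NTC DMSO group taken as the floor.

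Among receptors, the lipopolysaccharide co-receptor CD14 was at 1.04, 0.675 and 0.819 CPM in NTC DMSO and 9.54, 8.80 and 13.0 in C-body null cells. The groups did not overlap, as held for 21.1% of all genes in the upward direction, and CD14 rose by 3.62 ± 0.24 (adjusted p = 8.3e-09). The activating receptor LILRA5 rose by 5.36 ± 0.26, the beta-glucan receptor CLEC7A by 4.36 ± 0.25, the formyl peptide receptor FPR1 by 4.68 ± 0.52 and TREM2, a lipid-sensing receptor of macrophages, by 4.35 ± 0.25. CLEC5A had 0 counts in NTC DMSO and was at least 14.6-fold above the same floor, and the median of the receptor list is the same with it at that bound. Of the transcription factors, TFEC went from 0.0924 ± 0.037 to 2.42 ± 0.50 CPM (4.65 ± 0.33), IRF8 from 388 ± 4.76 to 721 ± 4.97 CPM (0.90 ± 0.06) and SPI1, which encodes PU.1, from 71.0 ± 8.15 to 114 ± 11.7 CPM (0.68 ± 0.12). NR4A1 fell (-0.88 ± 0.17), as did IKZF1 by a small amount (-0.22 ± 0.07) whose call ended with the replicate number as a block (adjusted p = 0.068) and without any 1 of 5 libraries, all but NTC DMSO replicate 3.

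**Figure D3:**
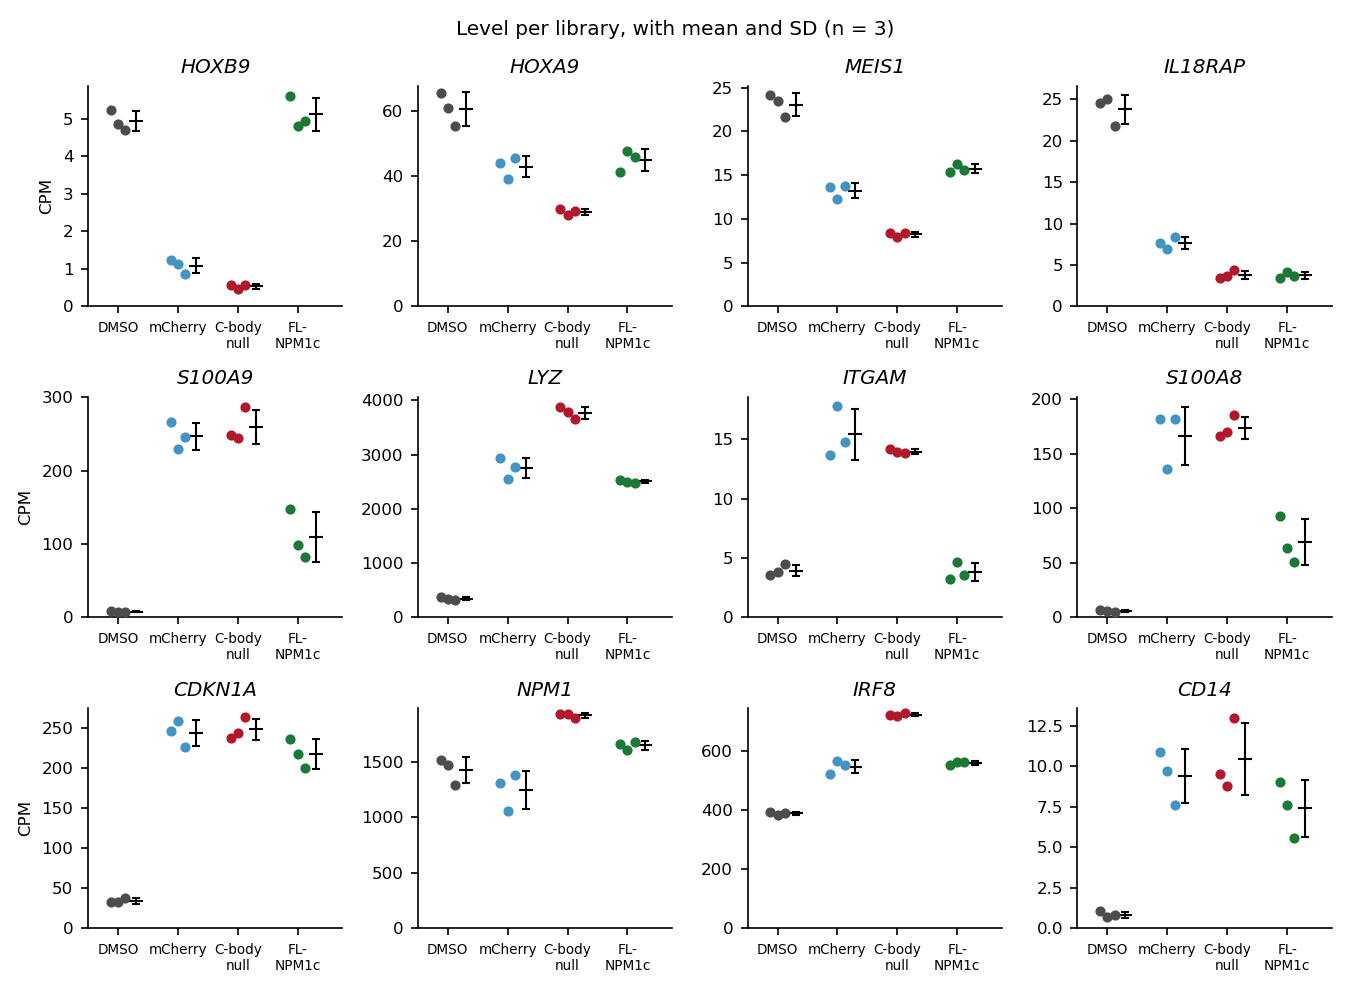
CPM on linear axes from 0 (y axes) of 12 genes in each library of the 4 groups (x axes), with replicates 1 to 3 from left to right and the mean ± SD beside them. C-body null libraries (red) are the lowest for HOXA9 and MEIS1 and the highest for LYZ, IRF8 and NPM1, and ITGAM is near the NTC DMSO level only with FL-NPM1c (green).

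Adhesion and effector genes rose less uniformly, where 14.1% of all genes rose and 12.4% fell. Of 18 integrins and adhesion genes, 8 rose and 3 fell (median 0.07), with ITGAM, the CD11b chain of complement receptor 3, at 3.55, 3.80 and 4.47 CPM in NTC DMSO and 14.2, 13.9 and 13.8 in C-body null cells. It rose by 1.83 ± 0.14 (adjusted p = 5.5e-08). VCAN, a matrix proteoglycan of monocytes, went from 56.8 ± 5.13 to 407 ± 51.9 CPM (2.84 ± 0.11). Of 19 oxidase and inflammasome genes 13 rose and 1, the pore-forming GSDMD, fell (-0.62 ± 0.15), with a median of 0.62. The DNA sensor AIM2 rose by 2.86 ± 0.25 and IL1B, which encodes interleukin 1 beta, by 1.79 ± 0.11. Of 34 lysosomal genes 20 rose and 2 fell (median 0.36, with 0 lower without NTC DMSO replicate 1 or 2 or C-body null replicate 3, and 1 without C-body null replicate 1), with the proteases CTSD (1.10 ± 0.15) and CTSH (1.47 ± 0.12) among the former. Antigen presentation genes rose in 9 of 17 cases and fell in 1 (median 0.35), with the costimulatory CD86 at 3.17 ± 0.15 and HLA-B at 1.15 ± 0.08, and 5 of 10 primary granule genes rose while 0 fell (median 0.35).

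C-body null cells differed from full-length NPM1c cells in part of these genes, in a comparison that called 2329 genes (9.68%). Of the 51 receptors 24 were higher in C-body null than in dTAG FL-NPM1c and 0 were lower, and of the 29 secreted and granule proteins 10 were higher and 3 lower. ITGAM was at 3.81 ± 0.74 CPM in dTAG FL-NPM1c, near NTC DMSO, and C-body null cells were higher by 1.88 ± 0.14 (adjusted p = 1.6e-07). The relaxin receptor RXFP1 was higher by 2.41, the phosphatase PTPN22 by 1.97 and the fatty acid receptor GPR84 by 1.78. S100A9 was at 109 ± 34.0 CPM in dTAG FL-NPM1c and higher in C-body null by 1.25 ± 0.15 (adjusted p = 3.7e-05). VCAN, by contrast, was at 354 ± 32.7 CPM with full-length NPM1c, and the difference of 0.20 ± 0.10 did not pass the test (adjusted p = 0.25). RHBDL3, a rhomboid-like protein, showed the reverse pattern: 0.875 ± 0.16 CPM in NTC DMSO, 0.168 ± 0.069 in C-body null and 3.67 ± 0.049 in dTAG FL-NPM1c (C-body null lower by 4.41, adjusted p = 9.2e-09).

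Against dTAG mCherry, whose construct label names mCherry alone, C-body null cells differed at 143 genes (0.594%), 52 higher and 91 lower. Of the monocyte genes, 2 of 51 receptors and 2 of 29 secreted proteins were higher and 0 of either were lower, where 0.216% of all genes were higher. HMOX1, the haem-degrading enzyme, was at 44.9 ± 3.63 CPM in C-body null and 24.2 ± 1.84 in dTAG mCherry (0.89 higher, adjusted p = 0.0017). TIFAB, an inhibitor of TRAF6 signalling, was at 19.5 ± 0.67 and 9.33 ± 1.68 CPM (1.05 higher, adjusted p = 0.00033). DCANP1 overlaps TIFAB on the same strand, so its counts are uncertain. The count of 143 became 1396 without dTAG mCherry replicate 2, which stands apart from its group, 59, 67 and 65 without C-body null replicate 1, 2 or 3, 77 without dTAG mCherry replicate 1 and 113 without its replicate 3.

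p53 targets and cell cycle genes moved in opposite directions, where 14.1% of all genes rose and 12.4% fell. Of 29 p53 targets tested 27 rose and 0 fell (median 0.93). CDKN1A, the cell cycle inhibitor p21, was at 32.3, 32.4 and 38.2 CPM in NTC DMSO and 237, 244 and 263 in C-body null cells. The groups did not overlap, and it rose by 2.86 ± 0.09 (adjusted p = 5.5e-12). The secreted stress factor GDF15 rose by 3.43 ± 0.22, TP53INP1 by 2.11 ± 0.12 and PHLDA3 by 1.89 ± 0.13, and the inhibitors CDKN2A and CDKN2B by 1.67 ± 0.12 and 2.10 ± 0.17. Among 40 genes of the G1/S transition and replication, 38 fell and 0 rose (median -0.55), and of 40 G2/M and mitosis genes 40 fell (median -0.62). RRM2, a ribonucleotide reductase subunit, went from 295 ± 24.1 to 153 ± 2.28 CPM (-0.95 ± 0.08), the licensing factor CDC6 from 111 ± 6.48 to 64.9 ± 3.02 CPM (-0.77 ± 0.08) and the kinesin CENPE from 209 ± 25.0 to 102 ± 11.1 CPM (-1.04 ± 0.11).

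These groups of genes were also compared among the cells given dTAG-13. The p53 list had medians of 0.77 in dTAG mCherry and 1.04 in dTAG FL-NPM1c against NTC DMSO, and in direct tests 0 of its 29 members differed from dTAG mCherry and 1, GDF15, was lower than in dTAG FL-NPM1c. Of the 40 G1/S and the 40 G2/M genes 0 differed from dTAG mCherry. Only 0.594% of all genes differed from dTAG mCherry, so counts of 0 in these lists do not stand out. Against dTAG FL-NPM1c, where 4.82% of all genes were lower, 3 of the G1/S and 4 of the G2/M genes were lower, among them CENPE (-0.59 ± 0.11, adjusted p = 0.0022). A p that misses the threshold does not show that levels were alike. In the BCL2 family 6 of 17 rose and 1 fell against NTC DMSO, where 14.1% and 12.4% of all genes did. Among those that rose were BCL2A1 (2.02 ± 0.19), the p53-responsive BBC3 (1.01 ± 0.17) and BAX (0.61 ± 0.12). The survival gene BCL2L2 fell (-0.27 ± 0.08). Its call ended without NTC DMSO replicate 2 (adjusted p = 0.068) or C-body null replicate 1 (0.10) or 3 (0.069). CCND1, encoding cyclin D1, rose by 0.85 ± 0.08, and MYC (193 ± 12.8 and 215 ± 11.3 CPM, 0.15 ± 0.07, adjusted p = 0.13) did not pass the test. MYC did pass it in the fit of the 6 libraries with the replicate block (0.15, adjusted p = 0.030) and without NTC DMSO replicate 3 (0.21, adjusted p = 0.044).

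**Figure D4:**
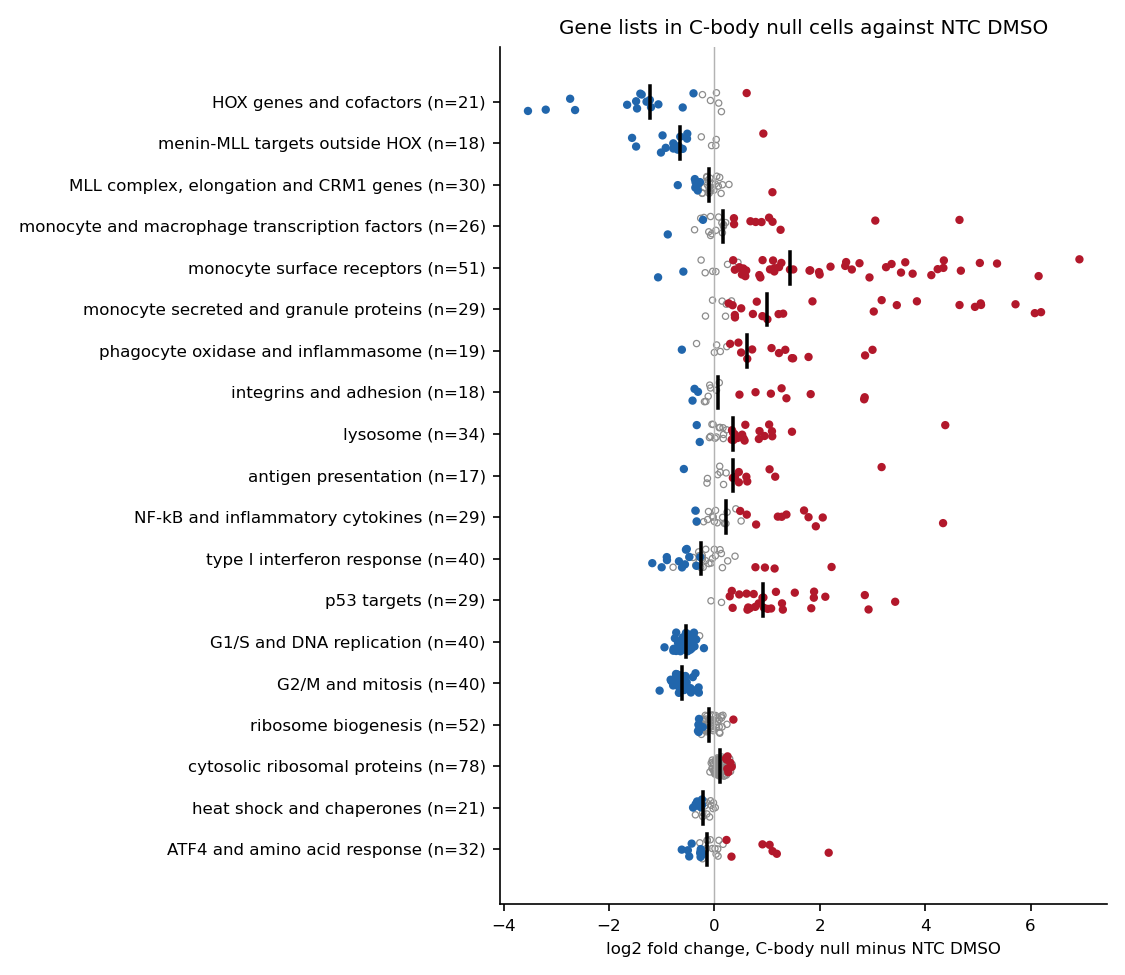
The log2 fold change, C-body null minus NTC DMSO (x axis), of each tested gene of 19 lists (y axis, with the number tested). Red and blue points were called higher and lower, open points were not called, vertical displacement within a row is for display, and black bars are medians. Monocyte receptors spread widest above 0, while the G1/S and G2/M genes form narrow groups below 0 and the ribosomal proteins one near 0.

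Growth, stress and inflammatory genes changed by small amounts or in mixed directions. Of 52 ribosome biogenesis genes 7 fell and 1 rose (median -0.10), and of 78 cytosolic ribosomal protein genes 7 rose and 0 fell (median 0.11). Over all genes 12.4% fell and 14.1% rose, so neither the share of biogenesis genes that fell nor that of ribosomal protein genes that rose stands out. These counts are unstable: over the alternative fits 0 to 19 biogenesis genes fell and 2 to 30 ribosomal protein genes rose. The lower end came without NTC DMSO replicate 1, among other libraries, and the upper end with the replicate block in the 6 libraries alone. RPL13A went from 1185 ± 86.2 to 1489 ± 108 CPM (0.33 ± 0.08). Of 21 chaperone genes 8 fell and 0 rose (median -0.22, 2 to 14 lower over the fits), led by HSPA8 at -0.40 ± 0.07. ATF4 and amino acid genes split into 7 higher and 10 lower of 32 (6 lower without NTC DMSO replicate 1 or any 1 C-body null library), with the mTOR inhibitor DDIT4 at 2.17 ± 0.10. Of 13 mitochondrially encoded transcripts 0 were called. The MYC network had 4 higher and 9 lower of 33, but 2 lower without NTC DMSO replicate 1 or 2, 5 without C-body null replicate 1 and 3 without its replicate 2 or 3. The 4 higher became 2 without NTC DMSO replicate 2 or C-body null replicate 1 or 3. Of 30 cholesterol genes 6 were higher, or 3 without C-body null replicate 1 or 2, and 7 lower, or 4 without NTC DMSO replicate 1 or C-body null replicate 2. Glycolysis and hypoxia genes had 6 higher and 4 lower of 28. Among 9 DNA methylation enzymes 4 fell and 1 rose, or 0 rose without C-body null replicate 2 (median -0.25).

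Inflammatory genes also divided, where 14.1% of all genes rose and 12.4% fell. Of 40 type I interferon response genes 12 fell and 4 rose (median -0.25, 9 to 19 lower over the fits). USP18, a brake on interferon signalling, fell by 1.18 ± 0.13, OAS3 by 1.00 ± 0.14 and IFIT3 by 0.90 ± 0.11, while TRIM22, an antiviral ubiquitin ligase also known as a p53 target, rose from 25.3 ± 3.02 to 118 ± 4.54 CPM (2.22 ± 0.10). Of 29 NF-kB and cytokine genes 11 rose and 2 fell, or 4 fell without NTC DMSO replicate 3 (median 0.22), among them IL10 (4.34 ± 0.36), LIF (2.06 ± 0.24) and the inhibitor TNFAIP3 (1.93 ± 0.12). Of 33 immediate early and MAPK feedback genes 14 rose and 6 fell, with JUN at 1.90 ± 0.11 and RPS6KA5, a histone kinase, at -1.54 ± 0.10. Histone genes rose in 8 of 12 cases, for example H2BC21 (2.07 ± 0.14), and the 2 that fell were the variants H2AX (-0.61 ± 0.11) and H2AZ1 (-0.65 ± 0.07). Copies of clustered histone genes are similar, and the counting of shared reads is not given, so their values are uncertain.

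Markers of the line and of other cells were checked beside these results, where 14.1% of all genes rose and 12.4% fell. Of 9 tested AML blast markers 8 rose and 0 fell, and their summed level was 1476 to 1559 CPM in NTC DMSO and 5318 to 5522 in C-body null cells, which includes LYZ. The stem cell factor receptor KIT was at 0 in all 6 libraries and CD34 had 2 to 8 counts per NTC DMSO library and 5 to 11 per C-body null library. Of 11 T and NK cell markers the defining CD3D, CD3E, CD3G and CD2 were at 0, and the sum was 10.5 to 16.0 CPM and 7.23 to 8.59 CPM. Of 9 B and plasma cell markers MS4A1 and JCHAIN were at 0, with sums of 3.25 to 3.53 and 1.58 to 2.21 CPM. Of 12 epithelial and fibroblast markers EPCAM, KRT19, CDH1 and COL3A1 were at 0, while their sum rose from 58.7 to 67.5 CPM to 452 to 556 CPM through fibronectin (FN1, 62.6 ± 3.62 to 510 ± 50.4 CPM, 3.02 ± 0.10), which macrophages also make. Neutrophil markers summed to 30.3 to 38.4 and 86.0 to 98.4 CPM, with the granule genes LTF, CEACAM8, OLFM4 and CD177 at 0. All 3 tested neutrophil markers rose, by 0.95 to 3.63 on the log2 scale, among them the growth factor receptor CSF3R (1.50 ± 0.11). Dendritic cell markers summed to 8.92 to 12.2 and 12.9 to 13.1 CPM. The 4 tested changed by -1.17 to 3.76 on the log2 scale, with 1 called higher and 1 lower. Erythroid and megakaryocyte markers summed to 16.8 to 22.4 and 16.9 to 17.7 CPM. The 4 tested changed by -0.47 to 2.53, with 1 called higher and 1 lower. Stem cell markers summed to 77.3 to 80.5 and 90.5 to 95.8 CPM with 6 of 14 at 0. The part of other cells in the changes above was not tested.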

How the data were processed

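Total RNA of 12 samples went into a stranded mRNA library kit, as the labels' protocols state. The table the authors deposited holds whole-number counts per Ensembl gene and library, made on hg38 with STAR and featureCounts listed among the tools, per the submitters' processing notes; for versions, annotation and strand setting, "not given in the sources used here" applies. Of 78936 lines, 6 broken ones (2 genes) were left out. Columns were matched to samples by library number, an inference. Totals were 30.5 M to 59.9 M counts over the 12 libraries.

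edgeR 4.0.16 in R 4.3.3 was run on all 12 libraries with filterByExpr by group (24064 genes kept, 0.0795% of counts removed), TMM factors of 0.975 to 1.02, 1 mean per group and robust quasi-likelihood tests, with Benjamini-Hochberg adjustment over all genes at 0.05. The SE was taken as |log2 fold change| over the root of the F statistic. No library was counted as a copy of another, since chi-square per degree of freedom between replicates was 3.72 to 37.8. Same-numbered C-body null and NTC DMSO libraries deviated together (residual correlations 0.27, 0.24 and 0.36). All 3 pass 0.1, but so did C-body null replicate 1 with NTC DMSO replicate 2 (0.16). C-body null replicate 3 reached 0.37 with dTAG mCherry replicate 1. Pairing by number was thus not established, and the labels do not state it, so the block served only as an alternative fit. On data simulated for this comparison (20087 genes), a 1.5-fold change was found for 36 of 67 altered genes. The numbers were 55 of 67 at 2-fold and 66 of 66 at 4-fold, and false calls made up 14 of 171 (8.19%). Far fewer genes were altered there than the 26.6% called in the real comparison, so these rates need not hold for it.

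The libraries and the 39 gene lists (1000 entries, 878 tested) were chosen with earlier results of these data known. Named genes were the 12 largest changes each way among protein-coding genes with at least 1 CPM in the higher group, groups that do not overlap and calls kept by DESeq2 and each left-out library, then up to 4 called genes per list, anchor genes, up to 8 each way against dTAG mCherry and dTAG FL-NPM1c, genes under 0.1 CPM in NTC DMSO, and 4 lncRNAs each way. HOXB5, CX3CR1, FCGR2A, NR4A1, IKZF1, GSDMD, BCL2L2, H2AX, H2AZ1, NPM1P26, CLEC5A, IFIT3 and JMJD1C were named after their values were seen. Some genes that the rule names are not reported here. The alternative settings used DESeq2 1.42.0, RLE factors or plain totals as scaling, a filter of 50 counts in 3 libraries or none, stricter thresholds, the 2 groups alone, the replicate block and each library left out. The block with the 2 groups alone, and leaving out dTAG mCherry replicate 2 for the main comparison, were added after seeing the data. Python 3.11.15 read the table and drew the figures.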

Additional observations from a re-analysis of the deposited data

How the results depend on the processing

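The comparison with NTC DMSO kept its size under other tools and scalings. DESeq2, RLE factors and library totals gave 3252 to 3501 genes higher and 2731 to 3147 lower, and no scaling moved the median log2 fold change by more than 0.0212. With the replicate number as a block 3015 genes were higher and 2499 lower, and with the block in the 2 groups alone 4587 were higher and 4919 lower. At adjusted p under 0.01, 2217 were higher and 1722 lower, and at a log2 fold change of at least 1 there were 1295 and 360. Leaving out 1 library gave 2542 to 3515 higher and 1983 to 3497 lower. Without dTAG mCherry replicate 2, 3809 were higher and 3562 lower. In this comparison the block ended the calls of AZU1, NOL11, GAS5, DANCR and IKZF1 among the genes examined singly. A fit that dropped a gene or gave it no adjusted p was skipped for that gene. Of 195 genes examined singly and called, 169 kept their call in all of the 15 alternative fits that tested them and 26 lost it in at least 1. Part of this was fixed by selection, since the largest changes and the lncRNAs were named only if such calls held. These counts thus do not measure how stable called genes are in general. KMT2A and GAPDH, neither called, changed sign without 1 library: KMT2A ranged from -0.22 to 0.029 (0.029 without C-body null replicate 3) and GAPDH from -0.11 to 0.036 (0.036 without NTC DMSO replicate 3).

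The comparison with dTAG mCherry was fragile. In place of 143 genes, DESeq2 called 357, no low-count filter 368, the replicate block 86 and the 2 groups alone 61, while the stricter adjusted p left 71, the 2-fold threshold 19, and leaving out 1 library gave 59 to 1396. Of 32 genes examined singly, 12 kept their call in all 14 fits. Against dTAG FL-NPM1c, 2329 became 4416 in the 2 groups alone, 1169 at the stricter p, 506 at 2-fold, and 1365 to 2131 without 1 library. Of 86 genes, 63 kept their call in all of the 14 fits that tested them. Residuals of same-numbered libraries did not deviate together in these comparisons (-0.01, 0.04 and -0.46 with dTAG mCherry, -0.24, -0.30 and -0.51 with dTAG FL-NPM1c). The cause of these changes was not tested. Depth limits genes near 0 in NTC DMSO, where 3 counts over the group equal 0.0251 CPM.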

Other observations

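Of 4214 lncRNA genes tested 13.9% rose and 8.07% fell, against 14.1% and 12.4% of all genes. Those with the largest changes each way, picked by that size, include some beside named protein-coding genes, and no count of all such pairs was made. FN1-DT, which starts 80 bases from FN1 on the other strand (chromosome 2, 215436253 to 215436992), rose by 3.30 ± 0.28 on the log2 scale, and FN1 by 3.02 ± 0.10. VCAN-AS1 lies within VCAN (chromosome 5, 83531352 to 83581320) on the opposite strand and rose by 2.81 ± 0.13, VCAN by 2.84 ± 0.11. The host gene of the p53-responsive microRNA 34a, MIR34AHG, went from 2.17 ± 0.27 to 11.4 ± 0.94 CPM (2.40 ± 0.12), and LNCTAM34A, which overlaps it on the other strand, rose by 2.68 ± 0.17. Without a stated strand setting, reads of such overlapping pairs cannot be told apart. Among lncRNAs that fell, MALINC1 went from 14.7, 14.3 and 12.1 CPM to 3.90, 3.47 and 3.50 CPM (-1.92 ± 0.11) and was also lower than in dTAG mCherry by 0.85 (adjusted p = 0.0017). JMJD1C-AS1 fell by 2.10 ± 0.18, and JMJD1C, whose locus holds it on the other strand, by 0.70 ± 0.11.

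Several neighbours on a chromosome changed in the same direction. S100A8, S100A9 and S100A12 lie within 29004 and 12678 bases of each other on chromosome 1. C1QA and C1QC are 4021 bases apart, IL18R1 and IL18RAP 19913 bases apart on chromosome 2, and CDKN2A and CDKN2B 7601 bases apart on chromosome 9. Genes of high level were called lower more often. Of 2125 genes with a mean of 100 CPM or more 24.1% fell and 10.6% rose, with a median log2 fold change of -0.07. Of 6158 genes under 1 CPM 3.99% fell and 13.7% rose, with a median of 0.15. The share called also depends on the number of counts, so these shares do not compare the size of changes. No group in the comparison has enough libraries for a test of single outlying samples.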
